A study of Mus musculus with 21 samples.

Results

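The effect of losing Asxl1 in blood progenitors that already carry Jak2V617F was measured by RNA sequencing of bone marrow c-kit+ cells from C57BL/6 mice. The comparison takes 3 libraries of genotype Asxl1-/-Jak2V617F and 3 of genotype Jak2V617F, which are 6 of the 11 RNA-seq libraries and of the 21 samples of the series analysed here. Both groups carry Jak2V617F, so that the allele is shared and the labelled difference is Asxl1. The remaining RNA-seq libraries, 2 of genotype Asxl1-/- and 3 WT, entered the same fit and give the effect of Asxl1 loss without Jak2V617F. Marrow had been flushed from femur and tibia, red cells lysed, and cells bound by CD117 magnetic beads retained. The age of the mice, the promoter or Cre line behind each allele, the exons deleted from Asxl1 and whether replicates were separate animals were not stated in the labels used. P-values therefore measure the spread between these libraries, which may be technical.

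Asxl1 is a chromatin protein that activates the deubiquitinase BAP1, which removes ubiquitin from histone H2A, and it has also been linked to the Polycomb complex PRC2. Jak2V617F is a constitutively active form of the kinase that signals below the erythropoietin and granulocyte colony-stimulating factor receptors, and it drives myeloproliferative neoplasms, in which ASXL1 mutations are frequent partners. In c-kit+ marrow, stem cells give rise to erythroid and megakaryocytic progenitors under Gata1, Klf1 and Tal1, and to granulocyte and monocyte progenitors under PU.1 (gene Spi1), C/EBP factors and Gfi1. The granulocyte branch then fills primary granules first and secondary and tertiary granules later.

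The deposited read counts covered 54532 genes, of which 16262 had enough counts to be tested, and all of these are the members described. The 6 libraries held 16509573 to 19196283 counts. Kit, the gene for the receptor used in the enrichment, was at 242, 281 and 219 CPM (counts scaled to a common library size) in the Asxl1-/-Jak2V617F libraries 1 to 3 and at 338, 232 and 298 CPM in the Jak2V617F libraries 1 to 3. It did not pass the test (-0.22 ± 0.13 on the log2 scale, adjusted p = 0.19), although it did without Jak2V617F 2 (-0.37 ± 0.11, adjusted p = 0.0234) and with a sex term. On the first principal component, with 51.5% of the variance, the 3 Jak2V617F libraries lay at 98.5 to 105 and the other 8 between -47.3 and -17.8. Jak2V617F 2 had 263 CPM of Y-linked reads and the other 5 of the 6 libraries had 0. Jak2V617F is the only genotype with libraries of both kinds, so every value given with a sex term rests on Jak2V617F 2. Asxl1-/-Jak2V617F 3 stood apart from the other Asxl1-/-Jak2V617F libraries on the second component (-3.37 against 30.3 and 34.4).

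By edgeR's quasi-likelihood test with Benjamini-Hochberg adjustment, 7209 genes passed an adjusted p of 0.05, which is 44.3% of those tested. Of these, 3985 were higher in Asxl1-/-Jak2V617F (24.5%) and 3224 lower (19.8%). A change of 2-fold or more was seen in 2217 of the higher genes (13.6% of genes tested) and 1291 of the lower genes (7.94%). The median over all genes tested was -0.01 on the log2 scale. In 8761 genes (53.9%) the libraries of both groups did not overlap, so a lack of overlap was common. These shares are the background for each gene and gene group below. Values of a gene are listed in the order of libraries 1 to 3, fold changes are log2 values of Asxl1-/-Jak2V617F against Jak2V617F ± a standard error derived from the test, and all p-values are adjusted over the 16262 genes. In RNA from a bulk fraction, fewer cells of a type and less RNA per cell cannot be told apart.

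Promoter sequences from RefSeq (build GRCm38.p6, the assembly called mm10) are shown for 4 genes whose groups carry the main changes, 2 of primary granules (Elane, neutrophil elastase, and Ctsg, cathepsin G), 1 of secondary granules (Ngp, neutrophilic granule protein) and 1 of haem synthesis (Alas2, the erythroid first enzyme). They serve to show where the letters bound by the fate factors of these lineages occur. Each runs 5′ to 3′ on the gene's strand and stops before the start of the gene in the deposited table and in RefSeq. Capitals mark GAGGAA (the core of PU.1 sites) in Elane and Ctsg, TTGCNNAA (C/EBP) in Ngp and the letters AGATAA, known from Gata1 sites, in Alas2, where it lies on the other strand. The Alas2 sequence also holds GAGGAA, 148 bases before the RefSeq start and left in lower case.
Elane, chr10:79886062-79886246, plus strand: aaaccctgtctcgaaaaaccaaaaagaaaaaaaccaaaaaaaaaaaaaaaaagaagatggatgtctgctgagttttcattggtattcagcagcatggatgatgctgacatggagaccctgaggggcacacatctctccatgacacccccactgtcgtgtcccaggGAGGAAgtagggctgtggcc
Ctsg, chr14:56102575-56102824, minus strand: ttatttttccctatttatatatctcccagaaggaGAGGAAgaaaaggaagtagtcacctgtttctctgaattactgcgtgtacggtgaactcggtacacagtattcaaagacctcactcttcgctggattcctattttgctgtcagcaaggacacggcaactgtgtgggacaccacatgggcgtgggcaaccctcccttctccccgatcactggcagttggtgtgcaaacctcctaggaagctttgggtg
Ngp, chr9:110419558-110419746, plus strand: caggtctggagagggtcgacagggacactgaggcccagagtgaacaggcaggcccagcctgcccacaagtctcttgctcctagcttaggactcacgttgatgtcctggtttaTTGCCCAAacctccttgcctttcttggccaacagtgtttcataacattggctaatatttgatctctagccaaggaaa
Alas2, chrX:150547167-150547374, plus strand: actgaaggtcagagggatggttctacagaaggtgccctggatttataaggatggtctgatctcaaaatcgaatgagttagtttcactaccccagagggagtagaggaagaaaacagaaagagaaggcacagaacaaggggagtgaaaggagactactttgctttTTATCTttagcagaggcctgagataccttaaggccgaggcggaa

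Both strands of the 250 bases before the RefSeq start were searched in the 10856 tested genes with such a window. The letters were those above and CCNCNCCC (KLF factors, such as Klf1), which is not marked in the printed sequences. The RefSeq start used was the one nearest the gene start in the deposited table, with no limit on the distance. Some lay far from it, as in Prtn3 (5191 bases, counted with GAGGAA), Cybb (18447, counted with AGATAA) and Cd47 (55121). TTGCNNAA occurred in 7.57% of all windows, in 9 of 23 secondary and tertiary granule windows (39.1%) and in 0 of 13 primary granule windows. GAGGAA occurred in 23% of all windows, in 6 of 13 primary granule windows (46.2%), in 13 of 23 secondary and tertiary ones (56.5%) and in 4 of 14 of erythroid membrane genes (28.6%). AGATAA occurred in 6.3% of all windows, in 4 of 14 windows of erythroid membrane genes (28.6%), in 6 of 23 secondary and tertiary granule windows (26.1%) and in 1 of 16 windows of haem synthesis genes (6.25%). Among genes that rose 2-fold or more, TTGCNNAA was in 10.4%, GAGGAA in 28.6% and AGATAA in 7.08% of 1554 windows. Among those that fell 2-fold or more, TTGCNNAA was in 8.6%, GAGGAA in 23.2% and AGATAA in 8.48% of 814. CCNCNCCC occurred in 62.4% of all windows, in 7 of 14 of erythroid membrane genes (50%) and in 10 of 16 of haem synthesis genes (62.5%). It was in 7 of 13 primary granule windows (53.8%) and in 12 of 23 secondary and tertiary ones (52.2%). Among genes that rose or fell 2-fold or more it was in 64.6% and 62.3%. A match describes the letters and is not a binding site, and Ngp was chosen for printing after its match was seen. Elane, Ctsg and Alas2 also hold the letters marked in them, and Alas2 is the 1 window of 16 in haem synthesis with AGATAA. The printed promoters are therefore not a sample of their lists.

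**Figure D1:**
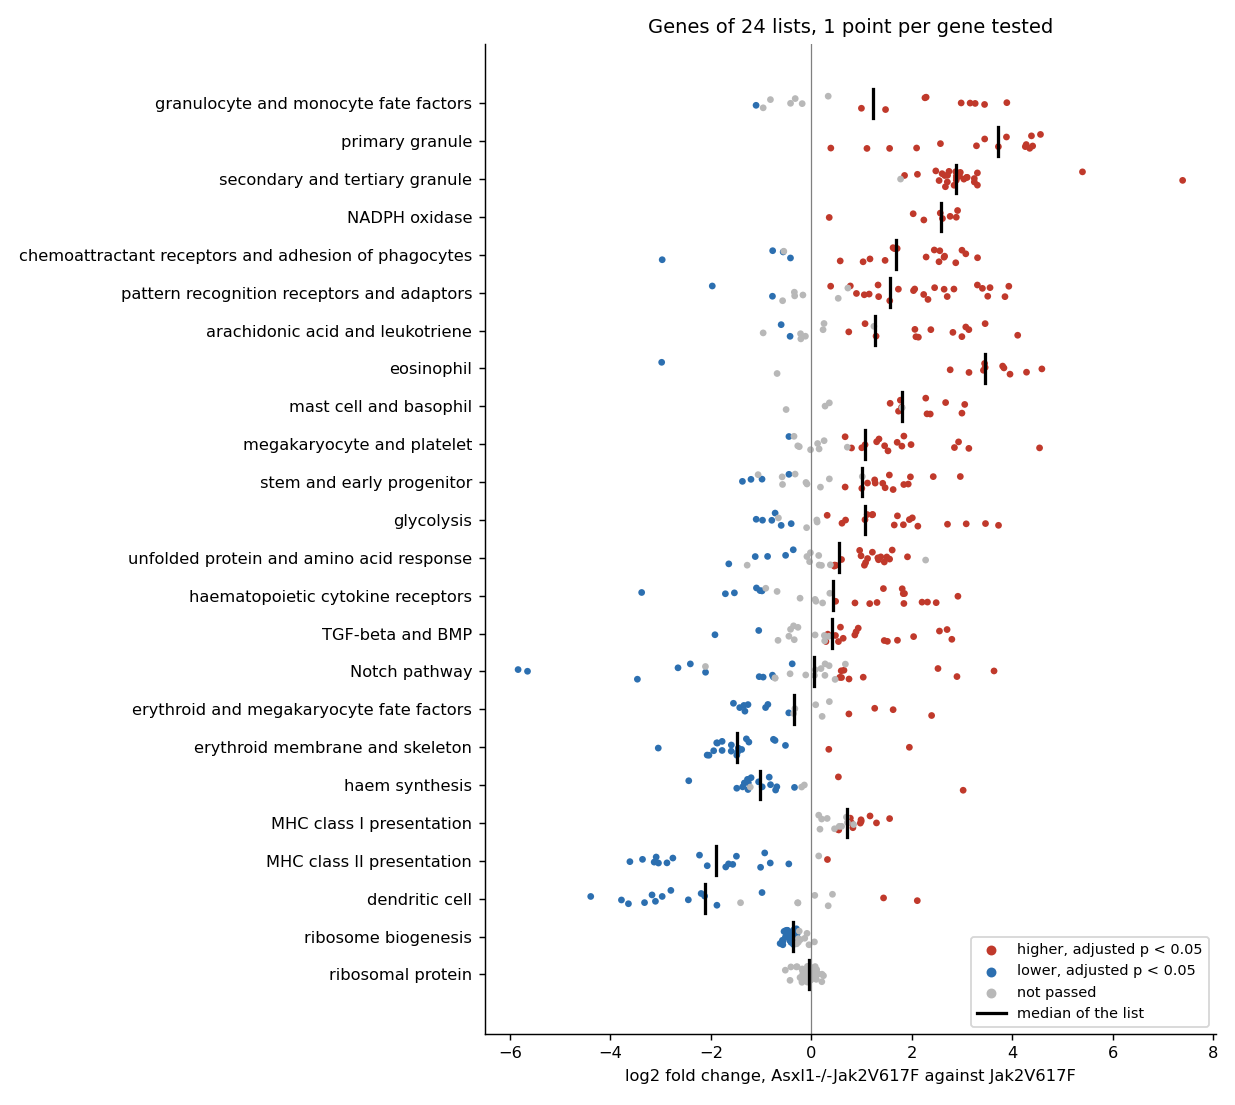
Log2 fold change of Asxl1-/-Jak2V617F against Jak2V617F (x axis) for each tested gene of 24 lists, 1 point per gene, red where higher and blue where lower at an adjusted p under 0.05, grey where not passed, with a black bar at the list's median. Primary granule genes centre on 3.72 and erythroid membrane genes on -1.48, while the ribosomal protein genes lie close to 0 and none of them passed.

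Among transcription factors of the granulocyte and monocyte branch, 9 of 16 rose and 1 fell, with a median of 1.24. The C/EBP factors moved together. Cebpa, the factor that commits progenitors to the granulocyte and monocyte branch, was at 176, 164 and 95.9 CPM in Asxl1-/-Jak2V617F and at 19.4, 13.2 and 12.8 CPM in Jak2V617F (3.26 ± 0.27, adjusted p = 9.39e-06). Cebpe, needed for secondary granules, was at 217, 172 and 164 CPM against 17, 24.3 and 9.23 CPM (3.45 ± 0.32, adjusted p = 2.86e-05). In both genes the groups lay far apart, with no overlap. Cebpb rose by 2.98 ± 0.25 and Cebpd by 3.16 ± 0.22. Gfi1, a repressor that favours granulocytes over monocytes, went from 12.8, 8.78 and 7.91 CPM to 187, 163 and 88.2 CPM (3.89 ± 0.29, adjusted p = 6.28e-06). Spi1 went from 53.8, 66.7 and 50.1 CPM to 340, 266 and 212 CPM (2.26 ± 0.16, adjusted p = 1.64e-06), with no overlap. Klf4 (2.29 ± 0.27) and Runx1 (1.0 ± 0.11) also rose. So did the circadian gene Per3 (1.48 ± 0.13), which is counted among the 9 but is not an established fate factor of this branch. Irf5 fell by 1.10 ± 0.25 (adjusted p = 0.00422). Irf8, the factor of monocyte and dendritic cell progenitors, was at 181, 145 and 173 CPM against 100, 166 and 130 CPM, which overlap, and did not pass (0.34 ± 0.17, adjusted p = 0.138), although it passed without Jak2V617F 2 (0.52 ± 0.15, adjusted p = 0.0212) and with a sex term. Id2 did not pass (-0.41 ± 0.18, adjusted p = 0.082) but was called lower without Asxl1-/-Jak2V617F 1 (-0.67), without Jak2V617F 3 (-0.53) and by DESeq2. Maf, Nab2 and Egr2 did not pass, with values from -0.81 to -0.18.

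The erythroid and megakaryocytic factors divided, with 8 of 17 lower, 4 higher and a median of -0.35. Gata1, the master regulator of both branches, was at 65.8, 80.4 and 120 CPM in Asxl1-/-Jak2V617F and at 229, 203 and 242 CPM in Jak2V617F (-1.34 ± 0.22, adjusted p = 0.000851). Klf1, the activator of adult globin and of red cell membrane genes, was at 92.2, 102 and 156 CPM against 338, 328 and 357 CPM (-1.55 ± 0.24, adjusted p = 0.000541). Tal1 was at 150, 161 and 184 CPM against 397, 405 and 435 CPM (-1.32 ± 0.17, adjusted p = 9.22e-05). Each of these was lowest in Asxl1-/-Jak2V617F 1 and highest, within that group, in Asxl1-/-Jak2V617F 3, and none overlapped. The Gata1 cofactor Zfpm1 (-1.43 ± 0.24), Gfi1b (-1.26 ± 0.23), the fetal globin repressor Bcl11a (-0.91 ± 0.13), the looping cofactor Ldb1 (-0.87 ± 0.12) and Foxo3 (-0.45 ± 0.09) fell too. The 4 factors that rose included Fli1, which favours megakaryocytes over red cells, Lyl1 (1.26 ± 0.15) and Nfe2 (0.75 ± 0.08). Fli1 was at 87.6, 86.8 and 62.7 CPM against 15, 18.1 and 11.9 CPM (2.40 ± 0.19, adjusted p = 2.88e-06). Gata2 was at 65.7, 57.2 and 52.2 CPM against 39.1, 54.1 and 43.4 CPM and did not pass (0.36 ± 0.16, adjusted p = 0.0843), although it passed without Jak2V617F 2 (0.49 ± 0.16, adjusted p = 0.0326) and with a sex term. Mafk, Mafg, Cbfa2t3 and Lmo2 did not pass, with values between -0.35 and 0.21, but Mafk was called lower without Asxl1-/-Jak2V617F 3 (-0.57) and, without Jak2V617F 1, Cbfa2t3 was called lower (-0.53) and Mafg higher (0.28).

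**Figure D2:**
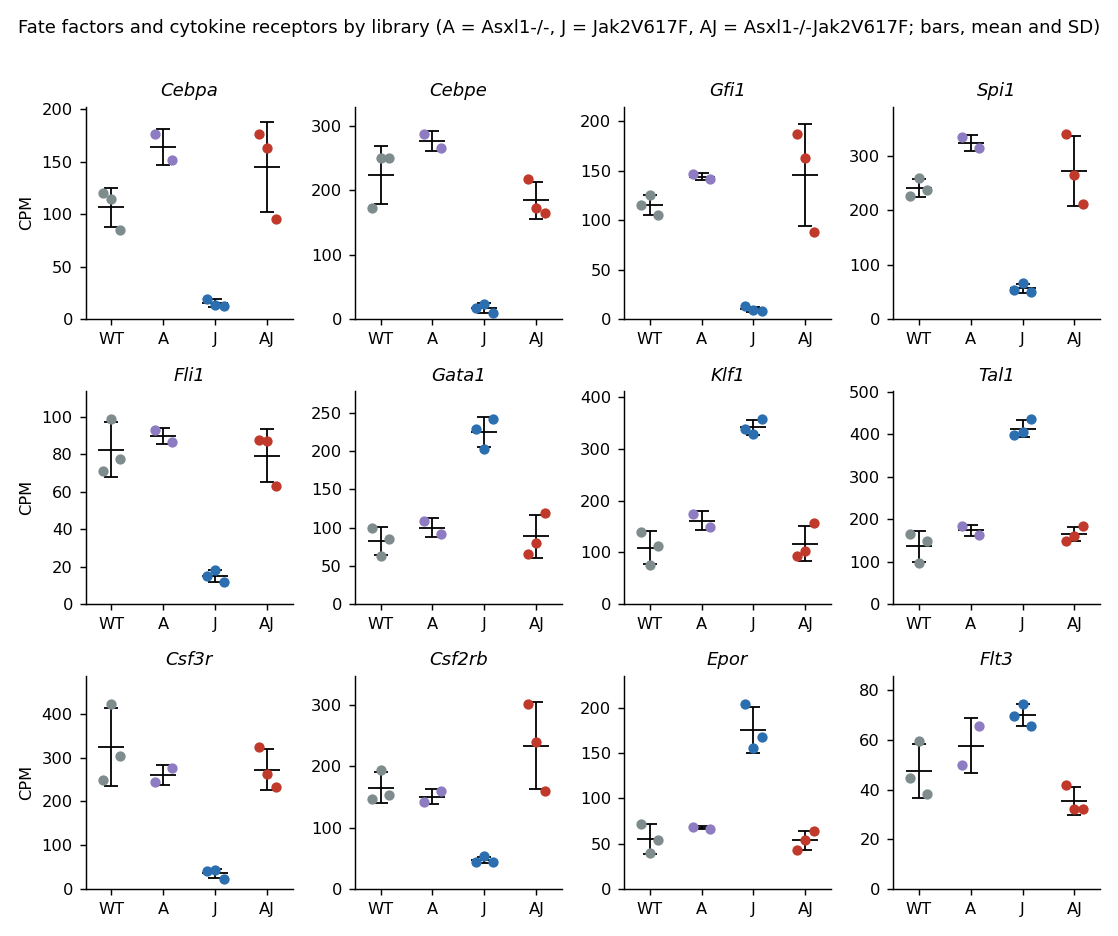
CPM (y axis) of 12 fate factors and cytokine receptors in each RNA-seq library, 1 point per library, grouped by genotype, with bars for the mean and SD. Cebpa, Cebpe, Gfi1, Spi1, Fli1, Csf3r and Csf2rb were lowest in the Jak2V617F libraries, and Gata1, Klf1, Tal1 and Epor were highest there.

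The receptors through which cytokines reach these branches divided in a like manner. Of 26, 13 rose and 6 fell, with a median of 0.43. Csf3r, the receptor of granulocyte colony-stimulating factor, was at 324, 262 and 232 CPM against 42, 42.3 and 23.8 CPM (2.92 ± 0.27, adjusted p = 2.05e-05). Csf2rb, the chain shared by the receptors of interleukin-3, interleukin-5 and granulocyte-macrophage colony-stimulating factor, was at 302, 239 and 160 CPM against 44.7, 52.9 and 43.5 CPM (2.31 ± 0.21, adjusted p = 1.48e-05). The ligand-specific chains Csf2ra (1.83 ± 0.16) and Il3ra (2.2 ± 0.23) rose with it, and Il5ra did not pass (-0.68 ± 0.53). Epor, the erythropoietin receptor, went the other way, from 204, 156 and 168 CPM to 43.1, 53.7 and 64.6 CPM (-1.71 ± 0.21, adjusted p = 0.000117), with no overlap. Epor and Csf3r, which both signal through Jak2, thus moved in opposite directions. Jak2 itself was lower (86.1, 97.3 and 93.1 CPM against 129, 121 and 127 CPM, -0.45 ± 0.08, adjusted p = 0.000638).

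The tumour necrosis factor receptor Tnfrsf1a (2.49 ± 0.16), Il4ra (1.85 ± 0.23), the thymic stromal lymphopoietin receptor Crlf2 (1.44 ± 0.11), Il6ra (1.31 ± 0.17), the macrophage colony-stimulating factor receptor Csf1r (1.162 ± 0.28) and Ifnar1 (0.48 ± 0.12) also rose. Il10ra (-1.53 ± 0.27), the interleukin-33 receptor Il1rl1 (-1.02 ± 0.16) and Flt3 (-0.98 ± 0.17) fell. Flt3, the receptor that marks lymphoid and dendritic cell potential, was at 41.7, 32.3 and 32.1 CPM against 69.6, 74.4 and 65.6 CPM, with no overlap. Csf2rb2, a near copy of Csf2rb, was called higher (1.81 ± 0.31), but reads shared by the pair could be split between them. Il9r was at 0.505, 0.286 and 0.55 CPM against 2.2, 8.14 and 3.75 CPM (-3.38 ± 0.74), and it kept its call at -2.73 without Jak2V617F 2. Il18r1 was called higher (0.87 ± 0.28, adjusted p = 0.0252), but not without Asxl1-/-Jak2V617F 1 (0.69), Jak2V617F 1 (0.91) or Jak2V617F 3 (0.62). Il2rb was called lower (-1.09 ± 0.40, adjusted p = 0.0463), but the call was lost whichever of the 6 libraries was left out, at -1.24 to -0.97. Il7r did not pass (-0.91 ± 0.47) but was called lower without Jak2V617F 3 (-1.26). Il2rg, Ifngr1, Il6st and Tgfbr2 did not pass, with values from 0.07 to 0.37, but Il2rg was called higher without Asxl1-/-Jak2V617F 3 (0.50) and Ifngr1 without Jak2V617F 1 (0.46). Of the 11 kinases and factors below the receptors 5 rose and 3 fell. Stat4 (1.86 ± 0.22), Jak3 (1.67 ± 0.17) and Stat3 (1.19 ± 0.14) rose, Stat5a (-0.65 ± 0.12, adjusted p = 0.00117) and Jak1 (-0.46 ± 0.10) fell, and Stat5b did not pass (-0.04 ± 0.09).

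Neutrophil granule genes had the largest shared rise. In the primary granule list 15 of 15 tested genes rose, with a median of 3.72, and in the secondary and tertiary granule list 26 of 27 rose and 0 fell, with a median of 2.89. Mpo, myeloperoxidase, was at 10939, 10367 and 6096 CPM against 654, 374 and 402 CPM (4.26 ± 0.28, adjusted p = 9.91e-07). Elane was at 3585, 3611 and 2273 CPM against 237, 125 and 126 CPM (4.28 ± 0.29, adjusted p = 1.87e-06), and Ctsg was at 1601, 1497 and 886 CPM against 84.8, 47.4 and 58.9 CPM (4.38 ± 0.28, adjusted p = 1.47e-06). In each of these genes Asxl1-/-Jak2V617F 3 was the lowest of its group and still far above the Jak2V617F libraries. Together the 15 primary granule genes took 1.52% to 2.64% of a library's counts in Asxl1-/-Jak2V617F and 0.213% to 0.254% in Jak2V617F. Their summed level was 27429, 25578 and 15362 CPM against 2426, 2009 and 2116 CPM. That sum includes the chaperone gene Calr, at 2548, 2394 and 1784 CPM against 620, 795 and 868 CPM, which is a larger part of it in Jak2V617F. Calr, Nkg7, Cybb and Hexa are among the members of the granule lists that are counted in other lists too. Of the later granules, Ngp was at 6688, 5443 and 6270 CPM against 1130, 1232 and 456 CPM (2.71 ± 0.31, adjusted p = 6.78e-05). The antimicrobial peptide gene Camp was at 2500, 2078 and 2758 CPM against 332, 404 and 157 CPM (3.04 ± 0.31, adjusted p = 3.71e-05). The secondary and tertiary genes took 3.12% to 3.93% of counts against 0.264% to 0.713%. In these later granule genes Asxl1-/-Jak2V617F 3 was not low, and Jak2V617F 3 was the lowest library.

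The machinery with which phagocytes make oxidants moved as a whole. All 8 tested subunits and partners of the NADPH oxidase rose, with a median of 2.59. Cybb, the catalytic subunit, was at 741, 700 and 739 CPM against 99.4, 135 and 60.7 CPM (2.89 ± 0.28, adjusted p = 2.54e-05). Its membrane partner Cyba rose by 2.03 ± 0.13, the cytosolic subunits Ncf1 and Ncf4 by 2.91 ± 0.23 and 2.76 ± 0.20, the blood cell GTPase Rac2 by 2.24 ± 0.14 and the proton channel Hvcn1 by 2.57 ± 0.21. The widely expressed GTPase Rac1 was higher by 0.36 ± 0.10 (adjusted p = 0.0104), a call lost without Asxl1-/-Jak2V617F 2 (0.30 ± 0.11, adjusted p = 0.0559).

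Receptors that detect and pursue microbes followed. Of 31 pattern recognition receptors and adaptors, 23 rose and 2 fell (median 1.56), and of 22 chemoattractant receptors and adhesion genes of phagocytes, 17 rose and 4 fell (median 1.68). Clec5a, a receptor that signals through Tyrobp, rose by 3.86 ± 0.28, the inhibitory receptor Clec12a by 3.51 ± 0.24, Fcgr3 by 3.56 ± 0.38 and Irak3 by 2.84 ± 0.17. Trem1 was at 41.9, 31 and 87 CPM against 4.24, 4.91 and 1.27 CPM (3.93 ± 0.51). The inflammasome genes Casp1 (2.24 ± 0.17) and Pycard (1.33 ± 0.15) rose. The complement receptor C5ar1 rose by 3.0 ± 0.33 and the integrin chain Itgb2 by 1.65 ± 0.19. Integrins went both ways. Itgax, the integrin CD11c of dendritic cells, was at 11.6, 11 and 8.61 CPM against 56.7, 98.4 and 89.3 CPM (-2.97 ± 0.31, adjusted p = 3.28e-05). Itga4, an integrin that holds progenitors in marrow, was at 304, 325 and 335 CPM against 518, 446 and 459 CPM (-0.56 ± 0.08, adjusted p = 0.000146).

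Lipid mediator and coagulation genes of myeloid cells rose as well. In the arachidonic acid list 13 of 22 rose and 2 fell, with a median of 1.27. Alox5, which starts leukotriene synthesis, was at 84.4, 77.9 and 99 CPM against 12.1, 13.4 and 7.07 CPM (3.0 ± 0.22, adjusted p = 2.94e-06). Its activator Alox5ap (2.08 ± 0.19), the next enzyme Lta4h (2.13 ± 0.13), the leukotriene B4 receptor Ltb4r1 (3.08 ± 0.30) and the prostaglandin enzyme Ptgs1 (3.14 ± 0.27) rose beside it. Of 25 genes of coagulation, complement and fibrinolysis, 15 rose and 3 fell, with a median of 1.97. F10, coagulation factor X, was at 60.3, 59.8 and 34.1 CPM against 2.2, 2.84 and 2.16 CPM (4.41 ± 0.24, adjusted p = 2.44e-07). F5 (3.43 ± 0.27), complement C3 (3.40 ± 0.33), the anticoagulant receptor Thbd (3.34 ± 0.22) and urokinase Plau (3.18 ± 0.17) rose too.

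Genes of other myeloid lineages moved with the granulocyte genes. Of 12 eosinophil genes tested, 10 rose and 1 fell, with a median of 3.46. Eosinophil peroxidase Epx was at 136, 74.9 and 132 CPM against 4.08, 3.63 and 6.54 CPM (4.59 ± 0.39, adjusted p = 1.87e-05), and the granule protein gene Prg2 was at 430, 240 and 336 CPM against 22.1, 23.9 and 24.5 CPM (3.84 ± 0.30). In the mast cell and basophil list 10 of 14 rose and 0 fell, with a median of 1.8. Hdc, which makes histamine, rose by 3.0 ± 0.24 and the mast cell protease Cpa3 by 2.37 ± 0.16. In the megakaryocyte and platelet list 16 of 25 rose and 1 fell, with a median of 1.07. Itga2b (CD41) was at 43.8, 49.8 and 35.4 CPM against 11.8, 14.9 and 18.1 CPM (1.53 ± 0.17), Itgb3 rose by 1.46 ± 0.23 and the platelet chemokine Pf4 by 1.8 ± 0.25. The summed share of the eosinophil list was 0.0646% to 0.0986% of counts against 0.00629% to 0.00875%, that of the mast cell and basophil list 0.0781% to 0.0844% against 0.0144% to 0.0175%, and that of the megakaryocyte list 0.0434% to 0.0641% against 0.0183% to 0.0224%. The highest megakaryocyte share was that of Asxl1-/-Jak2V617F 3. There the list member Thbs1 was at 223 CPM, against 8.31 and 11 CPM in Asxl1-/-Jak2V617F 1 and 2. The part of these lineages in the other results was not tested.

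Of 27 stem and early progenitor genes, 14 rose and 4 fell, with a median of 1.0. Cd34, a surface marker of early progenitors, was at 156, 156 and 111 CPM against 17.4, 14.6 and 22.1 CPM (2.97 ± 0.17, adjusted p = 3.91e-07). Mllt3, a stem cell regulator that is also active in erythroid and megakaryocytic cells, was at 33.6, 37.5 and 39 CPM against 107, 75.2 and 70.5 CPM (-1.20 ± 0.16, adjusted p = 8.14e-05). The list's direction was therefore not shared by all its members.

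Red cell genes fell. In the list of red cell membrane and skeleton genes 19 of 21 tested were lower and 2 higher, with a median of -1.48. Ank1, the ankyrin that ties the membrane to its skeleton, was at 129, 154 and 255 CPM against 546, 480 and 480 CPM (-1.48 ± 0.25, adjusted p = 0.00102). Epb41 (-0.75 ± 0.11) and the glycophorin Gypc (-0.72 ± 0.13) also fell. Asxl1-/-Jak2V617F 3 was the highest of its group in these genes, without reaching the Jak2V617F libraries. The list took 0.216% to 0.317% of counts in Asxl1-/-Jak2V617F and 0.581% to 0.670% in Jak2V617F. The 2 that rose were the glucose carrier Slc2a1 (1.95 ± 0.25) and Cd47 (0.35), whose call was lost without Asxl1-/-Jak2V617F 1 (0.31), Asxl1-/-Jak2V617F 2 (0.27), Jak2V617F 2 (0.25) or Jak2V617F 3 (0.31).

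In haem synthesis 15 of 20 genes fell and 2 rose, with a median of -1.01. The first step shows both directions. Alas1, the housekeeping form of the enzyme, was at 688, 473 and 391 CPM against 70, 57.9 and 62.9 CPM (3.02 ± 0.19, adjusted p = 8.48e-07). Alas2, the erythroid form, was at 7.58, 5.66 and 12.6 CPM against 45.3, 82.1 and 12.6 CPM (-2.44 ± 0.59, adjusted p = 0.00869). Alas1 groups are far apart, whereas Alas2 in Jak2V617F 3 lay at the level of Asxl1-/-Jak2V617F 3, and leaving out Jak2V617F 2 moved its change to -1.76 ± 0.49 (adjusted p = 0.0182). The later enzymes fell together. Uros was at 24.6, 32 and 37.9 CPM against 81.7, 72.3 and 72.4 CPM (-1.26 ± 0.17, adjusted p = 0.000145). Urod (-1.05 ± 0.17), Cpox (-1.20 ± 0.22), Ppox (-0.84 ± 0.14) and ferrochelatase Fech (-1.33 ± 0.21) fell by similar amounts. Of 17 genes of iron uptake and storage, 6 fell and 2 rose, 8 in all, a share close to the 44.3% called over all genes tested. Those lower included the iron sensor Tfr2 (-1.26 ± 0.14), the ferrireductase Steap3 (-1.28 ± 0.20) and ferritin heavy chain Fth1 (-0.83 ± 0.14), while the exporter Slc40a1 did not pass (0.13 ± 0.18). Of 4 adult globin genes tested 2 fell (1 without Asxl1-/-Jak2V617F 1 or 2), and their summed level was uneven, at 55.6, 57.3 and 255 CPM in Asxl1-/-Jak2V617F against 516, 1035 and 133 CPM in Jak2V617F, so the groups overlapped.

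**Figure D3:**
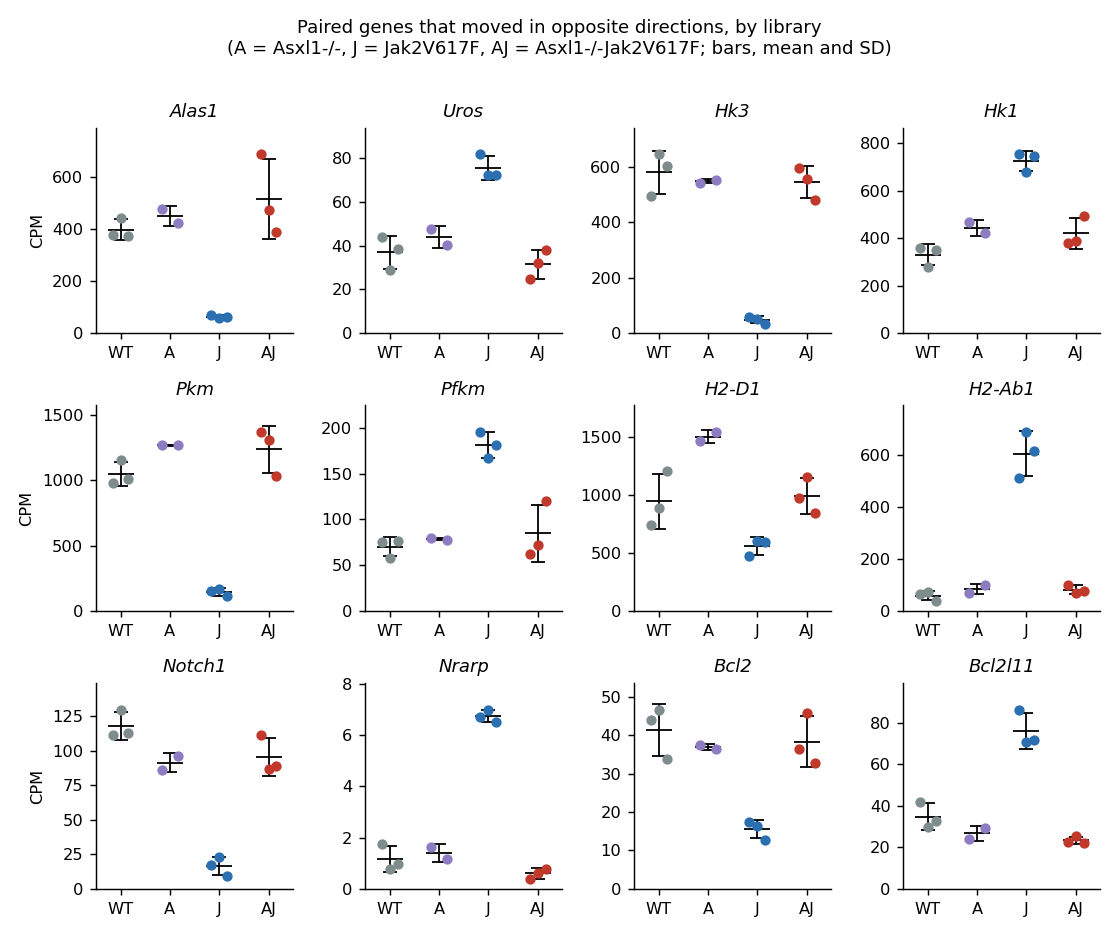
CPM (y axis) in each RNA-seq library for 6 pairs of related genes that moved in opposite directions, 1 point per library, grouped by genotype, with bars for the mean and SD. With Asxl1 loss on the Jak2V617F background Alas1, Hk3, Pkm, H2-D1, Notch1 and Bcl2 were higher, and Uros, Hk1, Pfkm, H2-Ab1, Nrarp and Bcl2l11 lower.

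The glycolysis genes showed the same division between isozymes. Of 27 entries (Aldoa has 2 in the table), 17 rose and 6 fell, with a median of 1.07. Hk3, the hexokinase of myeloid cells, was at 595, 556 and 480 CPM against 60.1, 52.6 and 34.8 CPM (3.47 ± 0.19, adjusted p = 3.34e-07), and Hk2 rose by 2.01 ± 0.17. Hk1, whose erythroid form feeds the red cell, was at 379, 388 and 494 CPM against 754, 678 and 745 CPM (-0.79 ± 0.12, adjusted p = 0.000348). Among the phosphofructokinases Pfkp rose (1.22 ± 0.10), Pfkm fell (-1.10 ± 0.21) and Pfkl did not pass (0.12 ± 0.07). Pkm, the pyruvate kinase of most tissues, was at 1367, 1311 and 1031 CPM against 157, 167 and 113 CPM (3.08 ± 0.16, adjusted p = 2.03e-07). Gpi1 (1.71 ± 0.12), Eno1 (1.21 ± 0.10) and the lactate exporter Slc16a3 (2.71 ± 0.24) rose. Ldha was at 872, 867 and 948 CPM against 822, 812 and 858 CPM and did not pass (0.11 ± 0.07, adjusted p = 0.262). Of 45 oxidative phosphorylation genes encoded in the nucleus 4 rose and 7 fell, with a median of -0.11, and the number that fell was 2 without Asxl1-/-Jak2V617F 1 or Jak2V617F 3 and 4 without Jak2V617F 1. Of 28 genes tested on the mitochondrial genome 10 fell and 0 rose, and their sum was 12133, 13314 and 12155 CPM against 18170, 16835 and 15090 CPM, with no overlap.

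Protein folding and ribosome genes separated. In the unfolded protein and amino acid response list 18 of 32 rose and 5 fell, with a median of 0.55. Calr, a chaperone of the endoplasmic reticulum that is itself mutated in myeloproliferative neoplasms, was at 2548, 2394 and 1784 CPM against 620, 795 and 868 CPM (1.56 ± 0.16, adjusted p = 1.44e-05). Hspa5 (1.34 ± 0.18), Pdia6 (1.5 ± 0.11), Sdf2l1 (1.91 ± 0.24), Dnajb9 (1.61 ± 0.18), Xbp1 (1.45 ± 0.20) and the stress sensor Ern1 (1.38 ± 0.12) rose. Sesn2 (-1.12 ± 0.12) and the asparagine synthetase gene Asns (-0.87 ± 0.20) were among the 5 that fell, and the transcription factor genes Atf4 (0.20 ± 0.15) and Ddit3 (-0.02 ± 0.23) did not pass.

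Ribosome biogenesis genes fell by small amounts, with 31 of 40 lower, 0 higher and a median of -0.36. Nat10, which modifies ribosomal RNA, was at 111, 122 and 136 CPM against 200, 175 and 193 CPM (-0.62 ± 0.09, adjusted p = 0.000217). The RNA polymerase I genes Polr1a (-0.48 ± 0.08), Polr1b (-0.58 ± 0.11) and Polr1e (-0.57 ± 0.08) and their initiation factor Rrn3 (-0.46 ± 0.10) fell. The list took 0.876% to 1.06% of counts against 1.27% to 1.42%. Of 54 cytosolic ribosomal protein genes 0 passed by edgeR (at most 1 when a library was left out), 2 had an unadjusted p under 0.05 (1 higher and 1 lower), and DESeq2 called 1 higher and 2 lower. Counts of ribosomal protein genes are uncertain, since their many pseudogenes share reads with them.

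**Figure D4:**
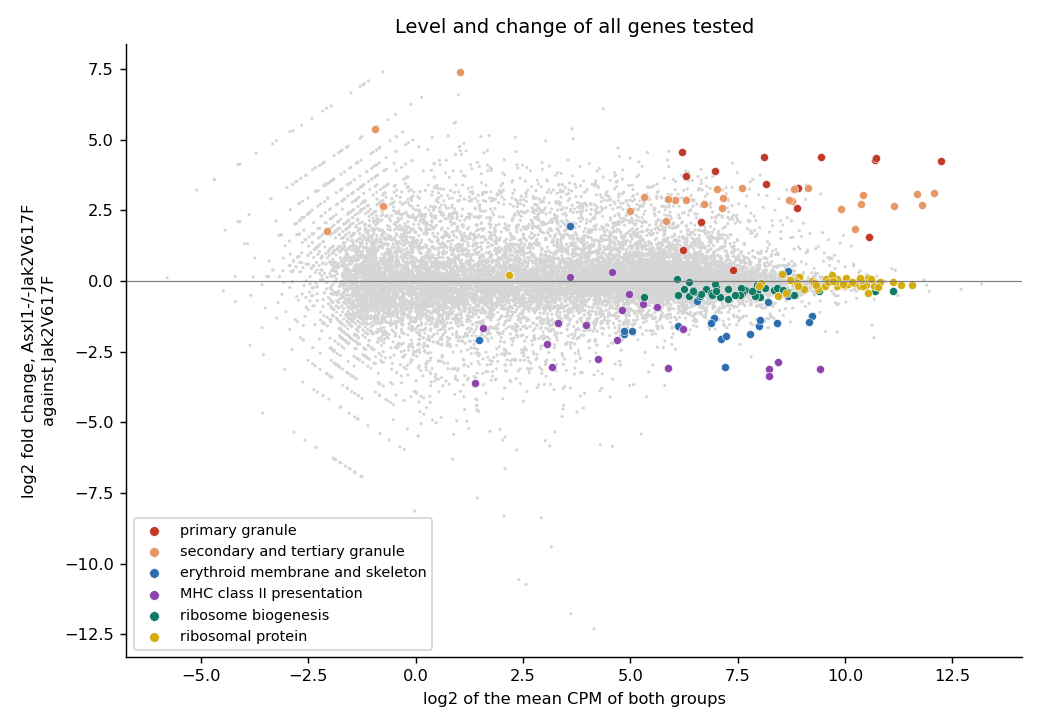
Log2 fold change of Asxl1-/-Jak2V617F against Jak2V617F (y axis) over the log2 of the mean CPM of both groups (x axis), 1 grey point per gene tested, with 6 lists coloured; 1 gene at 0 in both groups is not drawn. Granule genes lie above 0 and MHC class II and red cell membrane genes mostly below 0 at a wide range of levels, and ribosome biogenesis genes lie just below the ribosomal protein genes.

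Genes that present antigen moved in opposite directions. In the MHC class II list 18 of 20 fell and 1 rose, with a median of -1.89. H2-Ab1, a class II chain, was at 101.5, 69.6 and 76.9 CPM against 514, 688 and 617.2 CPM (-2.87 ± 0.24, adjusted p = 9.48e-06). The invariant chain Cd74 (-3.13 ± 0.26) and Ciita, the activator of the class II genes, fell with it, Ciita from 72.8, 135 and 109 CPM to 17.7, 11.2 and 8.37 CPM (-3.09 ± 0.36, adjusted p = 0.000108). In the class I list 11 of 21 rose and 0 fell, with a median of 0.72. H2-D1 was at 971, 1155 and 844 CPM against 470, 606 and 597 CPM (0.83 ± 0.18, adjusted p = 0.00289), Psmb8 of the immunoproteasome rose by 1.30 ± 0.17 and Tapbpl by 1.17 ± 0.13, while the peptide carrier Tap1 did not pass (0.60 ± 0.24, adjusted p = 0.0636) but did with DESeq2 (0.58 ± 0.23, adjusted p = 0.0274) and in a fit of the compared groups alone. MHC genes have near-identical copies, so that their counts are uncertain.

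The class II genes moved with dendritic cell genes, of which 13 of 21 fell and 2 rose, with a median of -2.13. Xcr1, the chemokine receptor of cross-presenting dendritic cells, was at 2.08, 1.43 and 1.4 CPM against 14.1, 29.2 and 24.6 CPM (-3.78 ± 0.35, adjusted p = 6.38e-06). Clec9a (-3.32 ± 0.28), Cadm1 (-3.17 ± 0.39), Batf3 (-2.13 ± 0.29) and Zbtb46 (-1.88 ± 0.19), also genes of conventional dendritic cells, fell, and so did the costimulators Cd86 (-3.04 ± 0.41) and Cd40 (-3.61 ± 0.53). Siglech of plasmacytoid dendritic cells did not pass (0.07 ± 0.79) and Ly75 rose (2.11 ± 0.23). The dendritic list took 0.0627% to 0.0683% of counts in Asxl1-/-Jak2V617F and 0.0771% to 0.115% in Jak2V617F, and its part in the class II result was not tested.

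Lymphoid genes were fewer and more variable. Of 19 lymphoid fate factors 7 fell (11 without Asxl1-/-Jak2V617F 3) and 0 rose, with a median of -0.67. Tcf3 (-0.72 ± 0.11), Ikzf1 (-0.44 ± 0.08) and Tcf7 (-1.26 ± 0.27) were among those that fell, and the B cell factors Ebf1 (0.55 ± 0.82) and Pax5 (-0.82 ± 0.78) did not pass. Pax5 was at 3.93, 3.55 and 24.7 CPM against 12.5, 32.3 and 11.6 CPM. Asxl1-/-Jak2V617F 3 and Jak2V617F 2 were the high libraries of their groups, and without Asxl1-/-Jak2V617F 3 Pax5 was called lower (-2.33 ± 0.56, adjusted p = 0.0107). In the T and NK cell list 16 of 24 fell and 1 rose, with a median of -1.56, yet its summed share was 0.0190% to 0.0309% against 0.0121% to 0.0209%, since the 1 that rose was the granule protein gene Nkg7 (3.89), which myeloid cells also express. In the B lineage list 11 of 25 fell and 6 rose, at 0.0415% to 0.113% against 0.136% to 0.477%. Leaving out 1 library changed these B lineage counts to 5 to 13 lower and 3 to 6 higher, the fewest lower without Jak2V617F 2. Of 165 immunoglobulin V genes 60 fell and 0 rose, and their sum was 687, 148 and 520 CPM against 1964, 2216 and 538 CPM, so that Jak2V617F 3 lay within the range of Asxl1-/-Jak2V617F. Dntt, which adds bases at V(D)J joints in early lymphoid progenitors, rose from 1.77, 5.79 and 5.64 CPM to 31.8, 31.4 and 55.8 CPM (3.16 ± 0.46, adjusted p = 0.00054).

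Marrow stroma was a small share of every library. Of 14 stroma and vessel genes tested 11 rose and 0 fell, with a median of 2.79, at a summed 0.0133% to 0.0230% of counts in Asxl1-/-Jak2V617F and 0.00390% to 0.0121% in Jak2V617F. Col3a1, Dcn, Lepr, Lum, Pdgfra and Postn were too low to be tested. Of 20 resident macrophage genes 3 fell (1 without Asxl1-/-Jak2V617F 1 or Jak2V617F 2, 9 without Jak2V617F 3) and 1 rose, at 0.0337% to 0.0388% against 0.0231% to 0.0557%. The part of these cells in the other results was not tested.

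Genes of the Notch pathway moved both ways. Of 33, 9 rose and 11 fell, with a median of 0.06. Notch1 was at 112, 86.6 and 89.4 CPM against 17.2, 23.1 and 9.71 CPM (2.52 ± 0.25, adjusted p = 3.44e-05), and the ubiquitin ligase Dtx4 rose by 3.64 ± 0.19. Nrarp, a target and feedback inhibitor of Notch, was at 0.393, 0.629 and 0.794 CPM against 6.71, 6.97 and 6.49 CPM (-3.46 ± 0.36, adjusted p = 1.55e-05). The target Hes1 fell by 2.65 ± 0.44, Notch4 by 2.41 ± 0.32 and the glycosyltransferase Lfng by 1.04 ± 0.12. The target Heyl was called higher (2.90 ± 0.80) at 0.337, 0.458 and 1.28 CPM against 0, 0.147 and 0.105 CPM, but not without Asxl1-/-Jak2V617F 3 (2.12), and it moved to 3.51 without Jak2V617F 2. The receptor Notch2 was called lower (-0.38 ± 0.13), with overlap, and lost its call without Asxl1-/-Jak2V617F 1 or 2 or without Jak2V617F 1 or 2, at -0.35 to -0.33. For Nrarp the 3 Jak2V617F libraries were close to each other and far above each Asxl1-/-Jak2V617F library. Of 28 TGF-beta and BMP genes 16 rose and 2 fell, with a median of 0.41. The BMP target Id1 was at 18.2, 11.8 and 6.35 CPM against 1.88, 2.11 and 1.58 CPM (2.70 ± 0.32), and the inhibitors Bambi (2.55 ± 0.33) and Smad6 (2.80 ± 0.54) and the activin receptor Acvr1b (1.71 ± 0.20) rose. The 2 that fell were the coreceptor Eng (-1.05 ± 0.19), which erythroid progenitors express, and Ltbp1 (-1.92 ± 0.36). Of 30 Ras and MAP kinase regulators 12 rose and 5 fell, with a median of 0.07. The exchange factor Rasgrp2 (2.58 ± 0.20) and the inhibitors Dusp6 (1.51 ± 0.16) and Spry2 (1.84 ± 0.18) were higher.

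Of 18 Bcl2 family genes 6 rose and 5 fell, and both survival and death genes were found in each direction. The survival gene Bcl2 was at 36.4, 45.8 and 32.7 CPM against 17.4, 16.3 and 12.8 CPM (1.30 ± 0.17, adjusted p = 7.05e-05). The death gene Bcl2l11 (Bim) was at 22.7, 25.4 and 22.3 CPM against 86.1, 70.8 and 71.7 CPM (-1.70 ± 0.14, adjusted p = 3.13e-06). The death genes Bmf (-1.68 ± 0.36) and Bax (-0.52 ± 0.08) also fell. The survival genes Bcl2a1d (-2.63 ± 0.44) and Bcl2a1a (-2.15 ± 0.39) fell at low levels, as near-identical copies whose reads could be shared. The death genes Bok (3.18 ± 0.69, at most 0.489 CPM in any of the 6 libraries), Bnip3 (1.54 ± 0.19) and Bad (0.49 ± 0.14; call lost without Asxl1-/-Jak2V617F 1 at 0.41 or Jak2V617F 3 at 0.37) rose. Mcl1 did not pass (0.23 ± 0.11, adjusted p = 0.108) except with a sex term (0.31 ± 0.11, adjusted p = 0.0491). In the replication and mitosis lists 0 genes changed 2-fold or more. Called in either direction were 16 of 41 replication and 13 of 32 mitosis genes, shares near the 44.3% over all genes tested. Of 41 replication genes 5 rose and 11 fell, with a median of -0.07 (3 rose and 6 fell without Asxl1-/-Jak2V617F 1, 3 and 7 without Asxl1-/-Jak2V617F 2 or Jak2V617F 3), and of 32 mitosis genes 11 rose and 2 fell, with a median of 0.10. Cdkn2d, an inhibitor of the G1 kinases, rose by 1.84 ± 0.17 and cyclin E1 (Ccne1) fell by 0.97 ± 0.24.

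Among chromatin regulators, Asxl1 itself (chromosome 2) was at 93.5, 95.1 and 100 CPM in Asxl1-/-Jak2V617F and at 196, 142 and 132 CPM in Jak2V617F (-0.70 ± 0.12, adjusted p = 0.000748). The counts sum the whole gene, so they do not show whether the transcript that remains is intact. Of the 11 tested genes of the ASXL and BAP1 complexes 4 fell, Asxl1 among them, and 1 rose. That is 5 in all, a share close to the 44.3% called over all genes tested. The partner Ogt, an enzyme that adds N-acetylglucosamine to nuclear proteins, fell by 0.59 ± 0.11, Hcfc1 by 0.36 ± 0.08 and the paralog Asxl2 by 0.34 ± 0.07. Bap1 was at 114, 115 and 128 CPM against 135, 130 and 133 CPM and did not pass (-0.16 ± 0.07, adjusted p = 0.096), although it did without Asxl1-/-Jak2V617F 3 (-0.21 ± 0.07, adjusted p = 0.0299) and with DESeq2. Of 13 PRC2 genes 5 rose and 2 fell, counts that came to 2 or 3 higher and 0 or 1 lower when any library but Asxl1-/-Jak2V617F 3 was left out. Phf19 (0.99 ± 0.14) and Mtf2 (0.46 ± 0.08) were among those higher, while Ezh1 did not pass (0.07 ± 0.12). Of 23 PRC1 genes 9 rose and 9 fell. Of the Cbx readers of H3K27 methylation, Cbx7 was at 7.02, 9.38 and 10.3 CPM against 24.9, 26.7 and 18.3 CPM (-1.39 ± 0.24, adjusted p = 0.000719), with no overlap, and Cbx6 also fell (-0.96 ± 0.13). Pcgf5 rose by 1.21 ± 0.09.

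Of 15 DNA methylation genes 7 rose and 2 fell, with a median of 0.18. Tet2, which oxidises methylated cytosine and is mutated in myeloid neoplasms, was at 52.9, 59.3 and 51.5 CPM against 37.9, 34.5 and 29.2 CPM (0.69 ± 0.13, adjusted p = 0.00105). Tet1 rose from 4.13, 5.59 and 8.76 CPM to 25.1, 17.4 and 13.8 CPM (1.61 ± 0.27, adjusted p = 0.000598). Tet3 was at 150, 158 and 147 CPM against 153, 186 and 152 CPM and did not pass (-0.11 ± 0.09). Idh1 and Idh2, which make the Tet cofactor 2-oxoglutarate from isocitrate, rose. Idh1 was at 113, 106 and 88.1 CPM against 17.2, 16.8 and 16.1 CPM (2.62 ± 0.10, adjusted p = 8.08e-08), and Idh2 rose by 1.19 ± 0.12. Of 23 histone genes 14 rose and 0 fell, with a median of 1.02. The linker histone Hist1h1c was at 87.9, 60 and 91.2 CPM against 32.7, 14.2 and 20.5 CPM (1.83 ± 0.38, adjusted p = 0.00394), and macroH2A (H2afy) was at 845, 845 and 579 CPM against 204, 215 and 240 CPM (1.78 ± 0.14, adjusted p = 2.35e-06). Most histone transcripts lack a poly(A) tail and share sequence with each other, so their counts depend on the library method and are uncertain.

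The largest changes among protein-coding genes with at least 20 CPM on average in the higher group included genes outside the lists. Of genes that rose, the neutrophil chemokine Cxcl2 was at 29.5, 14.2 and 29.2 CPM against 1.23, 0.343 and 0.158 CPM (5.39 ± 0.87, adjusted p = 0.000929; 6.54 without Jak2V617F 1). Dmkn was at 32.7, 28.6 and 12.6 CPM against 0.966, 0.54 and 0.738 CPM (5.04 ± 0.41, adjusted p = 4.3e-06), the lectin Mgl2 rose by 4.71 ± 0.35, the primary granule protease Prss57, a member of that list, by 4.56 ± 0.24, the maltase Mgam by 4.28 ± 0.25 and Tfec, a myeloid transcription factor, by 4.22 ± 0.20. Of genes that fell, the secreted nuclease Dnase1l3 was at 1.18, 0.515 and 0.733 CPM against 32.5, 62.5 and 46.3 CPM (-5.85 ± 0.48, adjusted p = 6.9e-06). Adam23 (-5.79 ± 0.52), the profilin sensor Tlr11 (-4.53 ± 0.29), Havcr2 (TIM-3, -4.49 ± 0.30), Traf1 (-4.07 ± 0.37) and the peptidase Anpep (-3.80 ± 0.25) fell as well, and several of these mark dendritic cells. Among noncoding genes, 84 of 466 lincRNAs tested rose and 74 fell, and 61 of 530 antisense genes rose and 60 fell, a smaller share than the 28% and 22% of protein-coding genes. AI839979 (2.94 ± 0.23), Gm14005 (2.63 ± 0.27) and Gm37233 (2.52 ± 0.24) rose and Gm33280 fell by 2.17 ± 0.30. Junos, beside Jun, rose by 2.90 ± 0.31. Without a stated strand setting, reads of antisense genes and their partners cannot be told apart.

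Some changed genes lay side by side. Runs of 4 or more tested neighbours that all changed 2-fold or more in 1 direction numbered 35 for higher genes (156 genes) and 6 for lower genes (28 genes). The longest lower run held 8 genes of the MHC class II region (chr17:34238903-34460734, from H2-Ob to BC051142). Higher runs included the serine proteases Prtn3 and Elane among 4 genes (chr10:79860475-79892655), the calprotectin region with S100a8 and S100a9 (chr3:90511034-90695721), and Ncf4 with both Csf2rb genes and Tst (chr15:78244801-78405907). The longest higher run held 7 genes from Tapbpl to Cd9 (chr6:125223933-125494791), with Tnfrsf1a among them. Coordinates are those of the deposited table. Members of several runs are related genes with similar sequence, whose reads could be shared.

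The genes that moved on the Jak2V617F background had medians near 0 in the comparison of Asxl1-/- with WT. In Asxl1-/- against WT 3664 genes passed (22.5%), but both Asxl1-/- libraries had Y-linked reads and the 3 WT libraries had none, so sex and genotype cannot be told apart there except through a sex term, which rests on Jak2V617F 2 alone and left 502 genes. Without 1 library that count was 288 (Asxl1-/- 1), 1407 (Asxl1-/- 2), 1929 (WT 2) or 2182 (WT 3). Of the 3985 genes higher on the Jak2V617F background, 366 were called higher and 335 lower on the WT background, where their median change was 0.02. Of the 3224 lower genes, 364 were called lower and 422 higher, with a median of 0.03. The test of the difference between backgrounds called 2843 of the higher genes (71.3%) and 1938 of the lower genes (60.1%), against 41.6% of genes tested (6764, or 4483 without Asxl1-/- 1 and 3079 with a sex term). Both contrasts enter that difference, so these counts are not independent of the calls. Beside the WT libraries, the mean of Asxl1-/-Jak2V617F lay within the range of the 3 WT libraries for 33.7% of the higher and 34.4% of the lower genes, and the mean of Jak2V617F for 5.07% and 8.56%. These genes were selected for a difference between the compared groups, so both means can seldom lie in that range. The same shares over all genes tested were not computed, so no background stands beside them. For Mpo the Asxl1-/- libraries were at 8153 and 7838 CPM and the WT libraries at 6692, 6374 and 5506 CPM, and for H2-Ab1 at 71.4 and 99.2 CPM and at 65, 71.5 and 40.5 CPM, so that in both genes it was the Jak2V617F group that stood apart.

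**Figure D5:**
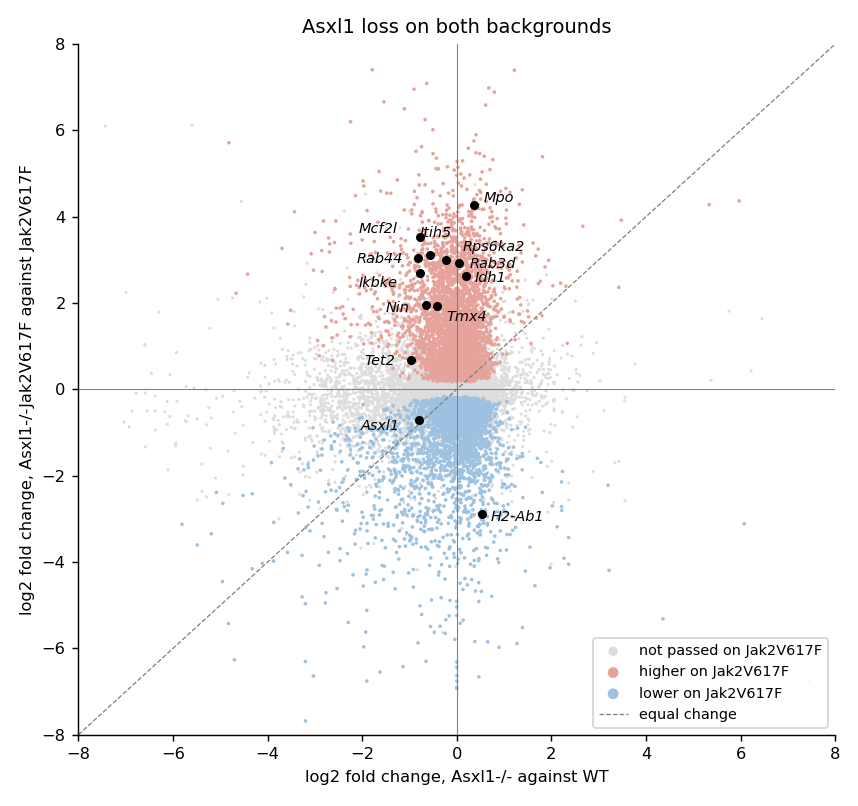
Log2 fold change of Asxl1-/-Jak2V617F against Jak2V617F (y axis) over that of Asxl1-/- against WT (x axis), 1 point per gene tested, red or blue where the first passed, with a dashed line for equal change; 10 genes beyond 8 on either axis are not drawn. Named genes other than Mpo, H2-Ab1 and Asxl1 have the smallest p-values of the difference or are Tet2, and Asxl1 lies close to the dashed line.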

How the data were processed

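RNA of c-kit+ marrow was measured in 11 libraries of 4 genotypes. The authors deposited raw read counts per Ensembl gene. Per the submitters' processing notes the tools were HISAT2 2.0.5, featureCounts 1.5.0-p3, DESeq2 1.16.1 and others, with genome mm10; strand and multimapping settings and the annotation version were not stated there, so counts of near-identical copies and of antisense genes are uncertain. Chromatin samples were not analysed here.

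Of 54532 genes, filterByExpr kept 16262. Counts were scaled by TMM and fitted in edgeR 4.0.16 (R 4.3.3; quasi-likelihood, robust) with a genotype factor over the 11 libraries; the common biological coefficient of variation was 19.7%. The standard error is the absolute log2 fold change over the square root of F. CPM are scaled to library size and TMM factor. Between replicates the counts varied 7.75 to 33.1 times more than Poisson sampling would give (chi-square divided by its degrees of freedom), and none was counted as a duplicate. Same-numbered libraries did not deviate together (correlations of 0.02, -0.18 and -0.16), and the numbers were not taken as pairs. With so few libraries these correlations cannot show whether a number marks a shared batch, which the labels do not state. In simulated data the test recovered most, but not all, of the changes put in.

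The comparison, the 52 gene lists and the tests were chosen with earlier results of these data known. Named genes were the 15 protein-coding genes with the strongest rise and the 15 with the strongest fall (no overlap, and at least 20 CPM on average in the higher group), the 10 and 10 with the largest difference in CPM, up to 6 members per list with the smallest p and up to 5 that went against the list or did not pass, the fate factors and cytokine receptors, noncoding genes with a mean CPM of 5 or more, run members, and the 10 genes with the smallest p of the difference between backgrounds; some genes that meet this rule are not reported here, and 28 list members outside it (such as Alas2, Ciita, Hk2 and H2-D1) were named after their values were seen. Alternatives were DESeq2 1.42.0, median-of-ratios scaling, other filters (none, or a CPM of 1 in 3 libraries), the compared groups alone, a replicate block, a sex term and leaving out each library.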

Additional observations from a re-analysis of the deposited data

Results flagged for a closer look

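The change with Asxl1 loss differed between the Jak2V617F and WT backgrounds, by a test of the difference itself (edgeR's interaction term, adjusted over all genes tested), for 10 genes described here. They are 9 of the 10 genes with the smallest p of that test, and Tet2, which was chosen after its values were seen. Both Asxl1-/- libraries and none of the WT libraries had Y-linked reads, so each difference is also given with a sex term, which rests on Jak2V617F 2 as the only library of its kind in a mixed genotype, and under which all 10 still passed.

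Rab44, a calcium-binding Rab GTPase of granulocytes and mast cells, was at 481, 472 and 404 CPM in the Asxl1-/-Jak2V617F libraries, 62.4, 46.2 and 54.8 CPM in those of Jak2V617F, 348 and 354 CPM in Asxl1-/- and 536, 685 and 637 CPM in WT. Its change was 3.05 on the Jak2V617F background and -0.82 on the WT background, a difference of 3.87 ± 0.20 (adjusted p = 1.98e-06; 3.42 with a sex term). With a sex term its change on the WT background was -0.47 and did not pass (adjusted p = 0.18). The difference was 4.31 ± 0.26 for the exchange factor Mcf2l (4.16 with a sex term), 3.66 ± 0.22 for the secreted protein gene Itih5 (3.61), 3.47 ± 0.21 for the kinase Ikbke (4.03), 3.22 ± 0.20 for the kinase Rps6ka2 (3.64) and 2.88 ± 0.18 for the secretory GTPase Rab3d (3.26). It was 2.62 ± 0.16 for the centrosomal protein gene Nin (2.56), 2.42 ± 0.14 for Idh1 (2.44) and 2.34 ± 0.15 for Tmx4 (2.52). In each of these 9 genes the Jak2V617F libraries were the lowest of the 11.

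Tet2 rose by 0.69 with Asxl1 loss on the Jak2V617F background and fell by 0.97 on the WT background, a difference of 1.66 ± 0.19 (adjusted p = 9.91e-05; 1.71 with a sex term, adjusted p = 0.00782). It was at 28.3 and 32.7 CPM in Asxl1-/- and at 53.7, 69.1 and 56.7 CPM in WT, against 52.9, 59.3 and 51.5 CPM in the Asxl1-/-Jak2V617F libraries and 37.9, 34.5 and 29.2 CPM in those of Jak2V617F. Both single genotypes were thus below WT and Asxl1-/-Jak2V617F in every library. With a sex term the fall on the WT background did not pass (adjusted p = 0.0537).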

How the results depend on the processing

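The count of genes changed in Asxl1-/-Jak2V617F against Jak2V617F (7209) lay between 6375 and 7478 under the other settings and between 5839 and 7062 when 1 library was left out. It was 7099 with a replicate block, which gave 6536 for the difference between backgrounds and 3402 for Asxl1-/- against WT. The labels do not state whether a replicate number marks a shared batch, and the block changed no call of a gene named in the text. The difference between backgrounds (6764 genes) fell to 3079 with a sex term and to 4483 without Asxl1-/- 1, and ranged from 4483 to 7016 over the libraries left out. Asxl1-/- against WT (3664 genes) fell to 502 with a sex term and ranged from 288 (without Asxl1-/- 1) to 4376. It was 1407 without Asxl1-/- 2, 1929 without WT 2 and 2182 without WT 3. The cause was not tested.

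Of 52 list counts, 11 moved over 1.5 times when a library was left out. With other settings, 6 lists did so, 1 of them not described here. The called genes of the B lineage list (17) were 10 with no filter, with the block and with a sex term, those of PRC2 (7) were 4 in a fit of the compared groups alone and with no filter and 2 with a sex term, those of the resident macrophage list (4) were 7 by DESeq2 and 2 with no filter or a sex term, and those of the globin list (2) were 1 in the compared groups alone and with the block. Of the ribosomal protein genes, at 0, other settings called at most 3. No named gene reversed its direction with a call. Median-of-ratios scaling moved the median of all genes to -0.03. Of the 255 genes named, 21 values were no longer past the threshold and 13 newly past it when 1 library was left out.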

Other observations

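Lysosomal genes rose more often than they fell, with 16 of 29 higher, 4 lower and a median of 0.43. Hexa, the alpha chain of hexosaminidase, is also counted in the primary granule list. It was at 169, 176 and 138 CPM in Asxl1-/-Jak2V617F and at 32.7, 45.2 and 35.1 CPM in Jak2V617F (2.10 ± 0.13, adjusted p = 4.36e-07 by edgeR). Of 27 Wnt pathway genes tested 5 rose and 7 fell, 12 in all, which is close to the 44.3% called over all genes tested. Within the Wnt list the receptor Fzd4 rose from 0.215, 0.245 and 0.158 CPM to 2.02, 1.77 and 1.34 CPM (3.01 ± 0.45), whereas Fzd1 fell from 4.29, 5.59 and 5.01 CPM to 0.505, 0.858 and 0.55 CPM (-2.95 ± 0.33). Of 17 heat shock genes 5 fell and 0 rose, with 3 lower without Asxl1-/-Jak2V617F 1 or 2 and 8 without Jak2V617F 1.

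By the transcription factor families named in the deposited table, 222 of 907 factors rose and 179 fell. That is about the same as over all genes tested, of which 24.5% rose and 19.8% fell. Homeobox factors rose in 22 of 42 cases (52.4%) and fell in 4 (9.52%), with a median of 0.63. ETS factors rose in 10 of 20 (50%) and fell in 6 (30%). C2H2 zinc finger factors rose in 68 of 430 (15.8%) and fell in 81 (18.8%), smaller shares than over all genes tested. These families were described without a test of their own.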
